A study of Mus musculus with 8 samples.

Results

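Homeobox, paired box, forkhead, SRY-related, LIM, POU and T-box transcription factors were examined in the left hippocampus of wild-type and Cav3.2 knockout mice. Members were the probes whose gene symbol starts with Hox, Pax, Sox, Fox, Lhx, Pou, Nkx, Dlx or Tbx followed by a member number. This rule uses symbols only, although the families were picked with earlier results of these data known. The array carries 202 such probes for 149 genes. Of these, 94 probes for 74 genes had a value on all 8 arrays, among 16588 probes with values in all, and the other 108 were blank on every array. All 74 symbols were found in RefSeq. By what is known of their roles in brain, 48 probes of 36 genes were called brain-expressed members. The remaining 46 probes of 38 genes were called other members. These names are labels for the lists and do not state expression in adult hippocampus. Other members are not all absent from the brain, as Foxb1, a factor of the mammillary body and thalamus, is among them. Brain-expressed members include an interneuron factor described below by its role in the embryo.

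Mice were male, of the C57BL/6 strain and 6 to 8 weeks old, and either wild type or homozygous for the Cacna1h tm1Kcam knockout, which removes the channel from every cell of the animal and throughout life. Naive mice received no treatment, and trained mice went through trace fear conditioning (TFC) and were killed right after a test of contextual memory. The 4 groups are WNL (wild type, naive), WTL (wild type, trained), KNL (knockout, naive) and KTL (knockout, trained). Each group had 2 arrays, and RNA of 3 mice was pooled for each sample. Mice within a group can therefore not be compared, and p-values cover only the difference between replicate arrays, which may be purely technical.

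These proteins bind DNA and set the identity of cells and regions in the embryo. Hox genes lie in clusters and pattern the hindbrain, spinal cord and trunk along the head-to-tail axis, and the forebrain, which includes the hippocampus, forms in front of their domain. Other families stay active in the adult brain: Sox2 and Pax6 in neural stem cells and glia, Lhx6, Dlx1 and Dlx2 in inhibitory interneurons, Sox10 in oligodendrocytes, and Lhx2, Foxp1 and POU factors in neurons or their precursors. In whole tissue, fewer cells of a type and less RNA per cell cannot be told apart.

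The KNL arrays stood apart from the other 6. Pearson's r of log2 intensity over all probes was 0.852 to 0.938 between a KNL array and an array of another group, against 0.968 to 0.985 between arrays of the other groups and 0.979 to 0.993 within a group. Cacna1h, which encodes the channel Cav3.2, read 2732 and 2985 on the WNL arrays, 2836 and 1838 in WTL, 1929 and 1377 in KNL, and 1171 and 1395 in KTL. Knockout arrays were below wild-type arrays in naive and in trained mice, but limma did not call either difference (adjusted p = 0.0303 and 0.190), and it is not known here whether the probe reads the part that was deleted. Intensities were raised to a floor of 100 and quantile normalized, and a member was called where it changed by more than 2-fold with an adjusted p below 0.01. Of 9 markers of hippocampal excitatory neurons measured, such as Camk2a and Slc17a7, none was near the floor in WNL.

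Member probes were dim. Their median intensity over the 8 arrays was 239, against 469 for all probes. Brain-expressed members had a median of 388 and other members of 219, and 26 of 48 brain-expressed and 36 of 46 other probes lay below the median of all probes. The members measured above the floor on every array numbered 70 of 94 (74.5%, against 81.6% of all probes).

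To see what the knockout changed in naive mice, KNL was compared with WNL. In this comparison 11 of the 94 member probes rose (11.7%, against 6.93% of all probes) and 8 fell (8.51%, against 13.5%). In either direction 19 members were called (20.2%, against 20.4% of all probes). Of the 46 other members 9 rose and none fell, while of the 48 brain-expressed members 2 rose and 8 fell. The counts of brain-expressed members are near the shares of all probes. The floor limited how far dim members could fall, as set out below. The probes that rose were those of Foxh1, Pax3, Tbx10, Pax8, Hoxc8, Hoxc4, Hoxb2, Hoxa9 and Foxb1 among other members, and of Lhx6 and Nkx2-1, both of the interneuron lineage. Those that fell were probes of Foxj3, Sox2, Sox12, Sox5, Foxk2, Foxn3, Pou3f2 and Pax6. Without regard to p, 22 member probes were over 2-fold higher (23.4%, against 10.2% of all probes). Those over 2-fold lower numbered 9 (9.57%, against 14.5%), the 8 named and 1 probe of Foxk1, all brain-expressed. Both KNL arrays lay above the 6 other arrays for 57 members (60.6%, against 37.5% of all probes) and below them for 13 (13.8%, against 26.9%). Lhx9 was the single other member with a negative change (-0.31 on the log2 scale, unadjusted p = 0.128).

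**Figure D1:**
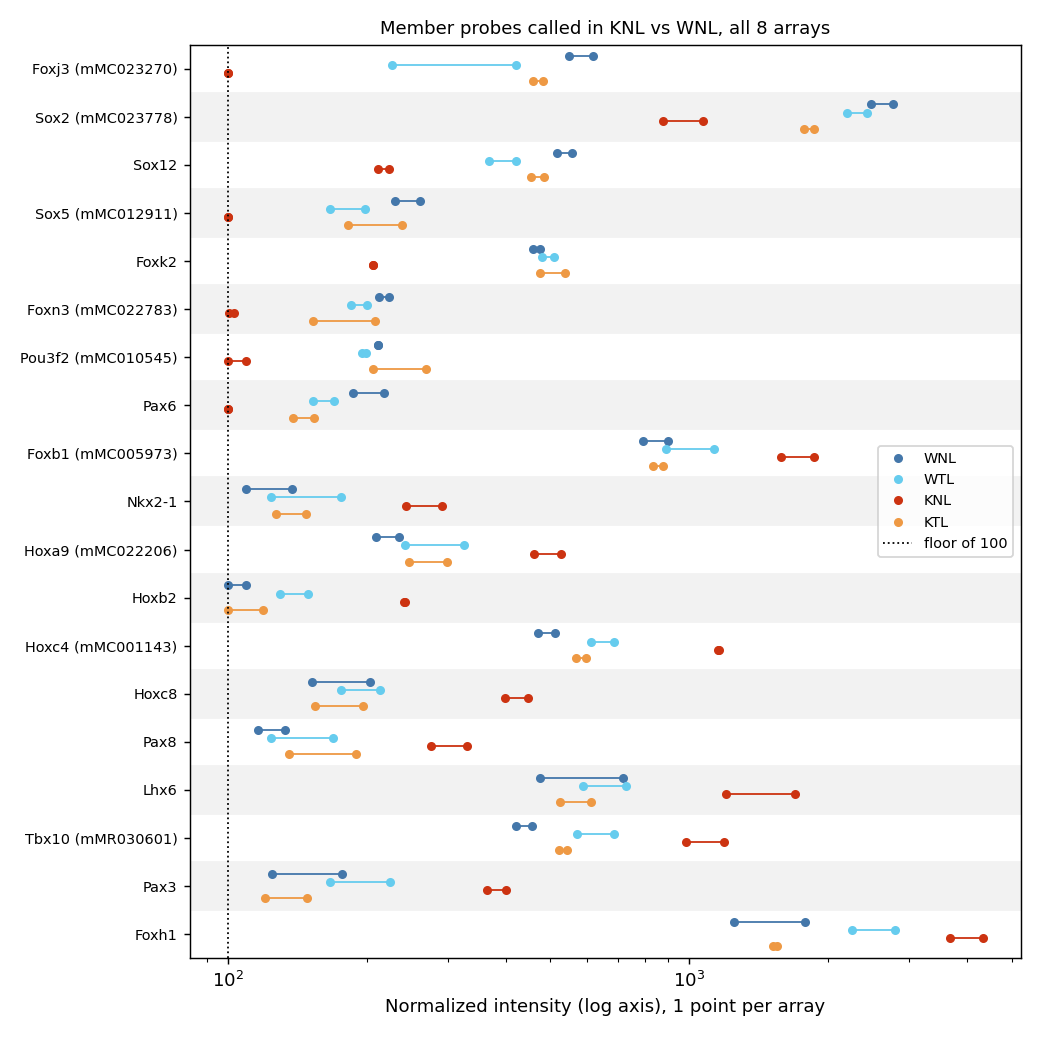
Normalized intensity (log axis) of the 19 member probes called in KNL vs WNL, 1 point per array, with a line joining the 2 arrays of a group and a dotted line at the floor of 100. The KNL points lie below all other points in the upper 8 rows, led by Foxj3, and above all other points in the lower 11 rows, ending with Foxh1.

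The calls rest on few arrays. Without replicate 2 of KNL, 2 members rose and 3 fell, without replicate 1 of KNL 4 rose and 5 fell, and without replicate 2 of WNL 5 rose and 4 fell. Limma called no other member lower in any fit on all 8 arrays. With a floor of 100, a probe less than 2-fold above the floor in WNL cannot be called lower. Many other members were that dim, such as Hoxb2, Pax3 and Pax8, so that the absence of falls among them was set in advance. The fit with no floor, which is free of this limit but not of the unknown filter behind the blank probes, also called none lower.

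Calls of 5 probes held under each of the 15 settings in which single genes were refitted, and these are described first. The treat test against a 2-fold change was not among these settings, and it called no member. Of the 5 probes, the 2 that rose belong to Hoxc4 and Tbx10. Hoxc4 (mMC001143), a Hox factor of the neck region of the embryo, read 512 and 470 on the WNL arrays, 613 and 686 in WTL, 1159 and 1152 in KNL, and 597 and 568 in KTL. Both KNL arrays were thus above the other 6, which spread over a narrow range, and the rise was 2.36-fold (log2 1.24, SE 0.11, adjusted p = 0.000389). Tbx10 (mMR030601), a T-box factor whose misexpression causes cleft lip in the Dancer mouse, read 422 and 455 in WNL, 571 and 686 in WTL, 986 and 1192 in KNL, and 522 and 543 in KTL. The KNL arrays again lay above all others, and the rise was 2.47-fold (log2 1.31, SE 0.14, adjusted p = 0.000822). The other Tbx10 probe (mMR027072) was not called, at a log2 change of 0.50 (adjusted p = 0.177).

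The 3 stable calls in the other direction were Sox2, Sox12 and Foxk2. Sox2 (mMC023778), which maintains neural stem cells and stays on in astrocytes, read 2760 and 2478 in WNL, 2197 and 2434 in WTL, 1071 and 879 in KNL, and 1866 and 1774 in KTL. It was 2.70-fold lower in KNL than in WNL (log2 -1.43, SE 0.14, adjusted p = 0.000491), and the KTL arrays lay between KNL and wild type without touching either. The other Sox2 probe (mMC010494) did not fall, at a log2 change of 0.13 (adjusted p = 0.36), so that the fall holds for the first probe only. Sox12, a SoxC factor of differentiating neurons and many other tissues, read 517 and 557 in WNL, 422 and 367 in WTL, 212 and 224 in KNL, and 454 and 485 in KTL. Its fall was 2.47-fold (log2 -1.30, SE 0.12, adjusted p = 0.000401), with KNL below all other arrays. Foxk2, a broadly expressed forkhead factor linked to metabolism and autophagy, read 458 and 475 in WNL, 480 and 509 in WTL, 206 on both KNL arrays, and 537 and 475 in KTL. It fell 2.26-fold (log2 -1.18, SE 0.11, adjusted p = 0.000427), and the 6 arrays outside KNL covered a range of less than 100 intensity units.

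The promoters of these 5 genes are shown because their calls were the most stable, a choice made after the values were seen. Each sequence is the 250 bases before the start of the gene as RefSeq annotates it on GRCm38.p6, read 5′ to 3′ on the strand of the gene. The windows are chr15:103034145-103034394 (plus strand) for Hoxc4, chr19:3992502-3992751 (plus) for Tbx10, chr3:34649745-34649994 (plus) for Sox2, chr2:152398047-152398296 (minus) for Sox12 and chr11:121259737-121259986 (plus) for Foxk2. Capitals mark matches on either strand to 4 motifs searched by their letters. These were GGGCGG for the GC box, CCAAT for the box of that name, TATAAA for the element near the start of some genes, and TGACGTCA for the full CRE site that CREB binds.
Hoxc4: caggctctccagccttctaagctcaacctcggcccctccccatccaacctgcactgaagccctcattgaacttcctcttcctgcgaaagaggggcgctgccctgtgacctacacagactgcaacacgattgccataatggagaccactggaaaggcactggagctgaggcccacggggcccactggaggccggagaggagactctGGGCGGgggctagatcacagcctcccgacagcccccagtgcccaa
Tbx10: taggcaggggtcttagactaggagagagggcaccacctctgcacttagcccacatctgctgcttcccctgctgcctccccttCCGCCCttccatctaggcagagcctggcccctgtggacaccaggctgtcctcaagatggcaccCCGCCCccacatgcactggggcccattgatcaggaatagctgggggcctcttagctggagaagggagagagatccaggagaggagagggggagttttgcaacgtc
Sox2: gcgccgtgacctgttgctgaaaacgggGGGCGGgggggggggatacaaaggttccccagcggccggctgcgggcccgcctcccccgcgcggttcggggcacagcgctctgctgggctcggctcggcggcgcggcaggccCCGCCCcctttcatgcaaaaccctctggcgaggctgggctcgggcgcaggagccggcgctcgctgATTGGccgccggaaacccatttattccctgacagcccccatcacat
Sox12: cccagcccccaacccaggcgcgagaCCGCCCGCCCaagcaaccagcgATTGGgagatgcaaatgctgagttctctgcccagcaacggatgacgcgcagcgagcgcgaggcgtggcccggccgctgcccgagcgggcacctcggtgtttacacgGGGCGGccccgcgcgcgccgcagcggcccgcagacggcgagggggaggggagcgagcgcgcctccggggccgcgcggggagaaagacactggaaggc
Foxk2: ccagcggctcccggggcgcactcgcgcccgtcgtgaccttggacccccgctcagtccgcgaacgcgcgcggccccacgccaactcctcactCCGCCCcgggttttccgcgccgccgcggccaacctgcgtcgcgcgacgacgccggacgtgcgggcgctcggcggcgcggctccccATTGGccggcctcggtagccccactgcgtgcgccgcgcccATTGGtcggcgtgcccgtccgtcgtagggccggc

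The windows of Hoxc4 and Tbx10 held 8 and 3 CpG sites at 62.0% and 61.2% GC. Those of Sox2, Sox12 and Foxk2 held 27, 35 and 48 CpG sites at 72.0%, 74.4% and 78.4% GC. A GC box was found in all 5, in Sox12 with 2 matches that overlap each other, and a CCAAT box in Sox2, Sox12 and Foxk2 only. Of 32851 windows of this length in RefSeq, 32.7% held a GC box, 33.8% a CCAAT box, 12.4% the TATA element and 1.55% the CRE. Windows were at hand for 51 of the 74 member genes, and of these 64 windows 62.5% held a GC box. The median was 7.5 CpG sites over the 8 windows of 6 genes with a probe that rose and 18 over the 9 windows of 8 genes with a probe that fell. It was 15.5 over all member windows, 17.5 over those of brain-expressed members, 9 over those of other members and 6 over all windows, so that the value for the falls is close to that of brain-expressed members as a whole. A CRE was present in 1 member window, that of Pax6. These matches describe the letters of the windows only.

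Among the members that rose, Hox genes were the largest family, with 4 of 13 probes called, beside 6.93% of all probes that rose. Hoxb2, which patterns the hindbrain segments, read 110 and 100 in WNL, 130 and 149 in WTL, 243 and 241 in KNL, and 100 and 119 in KTL. It was close to the floor outside KNL, and the rise was 2.31-fold (log2 1.21, SE 0.13, adjusted p = 0.000806). Hoxc8, a factor of the thoracic region, read 152 and 203 in WNL, 176 and 214 in WTL, 399 and 447 in KNL, and 197 and 155 in KTL. Its KNL arrays did not overlap the other 6, among which the groups overlapped one another, and the rise was 2.40-fold (log2 1.26, SE 0.20, adjusted p = 0.00265). Hoxa9 (mMC022206), known for its role in blood stem cells and the posterior trunk, read 209 and 235 in WNL, against 461 and 528 in KNL, with WTL and KTL between 242 and 325 (2.23-fold, adjusted p = 0.00275). The other Hoxa9 probe (mMC026384) was not called, at a log2 change of 0.24 (adjusted p = 0.650).

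**Figure D2:**
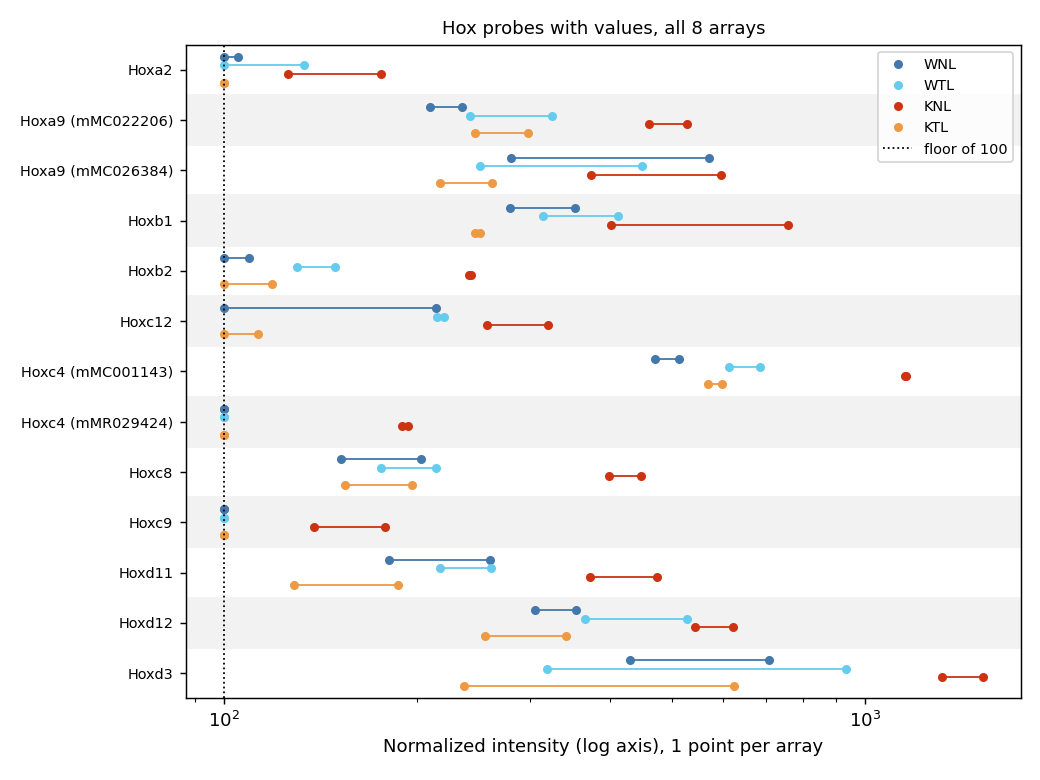
Normalized intensity (log axis) of the 13 Hox probes with values, 1 point per array, with a line joining the 2 arrays of a group and a dotted line at the floor of 100. The KNL points lie above all other points for 10 of the 13 probes, and the probes of Hoxc9 and Hoxc4 (mMR029424) sit on the floor on every array outside KNL.

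All 13 Hox probes had a positive change in KNL vs WNL, from 0.24 to 1.36, with a median of 0.95 on the log2 scale. The median of all probes was 0.16. Probes at the floor in WNL, those of Hoxc4 (mMR029424) and Hoxc9, could not have a negative change. Whether such probes have values only because of their KNL level is not known, as the filter behind the blank probes is not given. The change stayed positive for 12 of 13 without replicate 1 of WNL or without replicate 2 of KNL, and with a floor of 200 for 10, the others being at the floor in both groups. Both KNL arrays lay above all 6 others for 10 Hox probes, a pattern shown by 37.5% of all probes. At the floor on all 6 arrays outside KNL and above it on both KNL arrays were 3 member probes, those of Hoxc4 (mMR029424), Hoxc9 and Lhx3 (mMC015899), against 0.922% of all probes. Their KNL arrays read 189 and 193, 138 and 178, and 177 and 148, which is at least 1.91-fold, 1.57-fold and 1.62-fold above WNL. These probes missed the 2-fold limit and were not called. The brightest uncalled Hox probe was Hoxd3 with 708 and 430 in WNL, 933 and 319 in WTL, 1319 and 1523 in KNL, and 623 and 236 in KTL, where the replicates of WTL and of KTL differed by over 2-fold and the adjusted p was 0.0987. Of the 37 Hox genes on the array, 26 had no probe with values.

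Outside the Hox clusters the highest level among members that rose was that of Foxh1, the forkhead partner of Smad proteins in Nodal signaling of the early embryo. Foxh1 read 1784 and 1248 in WNL, 2253 and 2792 in WTL, 3672 and 4328 in KNL, and 1547 and 1518 in KTL. It had the largest rise of all members called (2.67-fold, log2 1.42, SE 0.20, adjusted p = 0.00190), and the WTL arrays lay above both WNL arrays as well. Pax3, a factor of neural crest and muscle precursors, read 177 and 124 in WNL, 167 and 224 in WTL, 400 and 364 in KNL, and 149 and 120 in KTL (2.57-fold, adjusted p = 0.00324). Pax8, needed in thyroid and kidney, read 133 and 116 in WNL, 124 and 169 in WTL, 276 and 329 in KNL, and 135 and 189 in KTL (2.42-fold, adjusted p = 0.00383). For both Pax genes the 6 arrays outside KNL overlapped between groups and stayed below it. Foxb1 (mMC005973), a forkhead factor of the mammillary body and thalamus, read 792 and 899 in WNL, 888 and 1132 in WTL, 1579 and 1868 in KNL, and 878 and 835 in KTL, a rise of 2.04-fold (adjusted p = 0.00256).

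The brightest other members of the Nkx and Pax families had larger spread or smaller change. Nkx2-6, a heart and pharyngeal factor, read 686 and 813 in WNL, 706 and 1591 in WTL, 1586 and 3032 in KNL, and 615 and 310 in KTL. One WTL array reached the level of KNL, and the change of 2.94-fold was not called (adjusted p = 0.0373). Pax2 (mMC023520), a factor of the midbrain-hindbrain boundary and the kidney, read 637 and 691 in WNL, 674 and 767 in WTL, 1093 and 1240 in KNL, and 523 and 465 in KTL. KNL was above all others, at 1.76-fold, under the 2-fold limit.

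The 2 brain-expressed members that rose belong to interneurons, and both calls were among the least stable. Lhx6, which specifies interneurons from the medial ganglionic eminence and stays on in their parvalbumin and somatostatin cells, read 717 and 475 in WNL, 589 and 729 in WTL, 1202 and 1699 in KNL, and 613 and 524 in KTL. The rise was 2.45-fold (log2 1.29, SE 0.26, adjusted p = 0.00624), with KNL above all other arrays. The call of Lhx6 was lost in 7 of 15 settings. Nkx2-1, which acts upstream of Lhx6 in the embryo and is also a thyroid and lung factor, read 110 and 138 in WNL, 124 and 176 in WTL, 290 and 243 in KNL, and 148 and 127 in KTL (2.17-fold, adjusted p = 0.00528). That call was lost in 9 of 14 settings, the most of any member. No brain-expressed member rose with a floor of 200, with the replicate number as a block, with only the arrays compared, or without any 1 of the KNL and KTL arrays. Dlx2, an interneuron factor of the ganglionic eminences, read 2026 and 1071 in WNL, 1610 and 2150 in WTL, 3235 and 3887 in KNL, and 1499 and 1655 in KTL, which was not called (2.41-fold, adjusted p = 0.0127). Its partner Dlx1 had the opposite sign, with 857 and 788 in WNL, 691 and 737 in WTL, 545 and 453 in KNL, and 760 and 701 in KTL (log2 -0.73, adjusted p = 0.00410, under the 2-fold limit). Of 9 probes for interneuron markers such as Gad2, Sst and Npy, 2 rose (Npy and Reln) and 2 fell (Slc32a1 and Vip). Over all probes 6.93% rose and 13.5% fell. The summed level of these 9 probes ran from 51424 to 55383 in WNL and from 45978 to 47814 in KNL. Most of this sum comes from 1 probe, whose mean over all arrays was 30331, against a median of 1626 for the 9 probes. The part of interneuron number in these results was not tested.

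Among neuronal, glial and broadly expressed members the calls were falls. Foxj3 (mMC023270), a broadly expressed forkhead factor, read 618 and 547 in WNL, 422 and 226 in WTL, and 458 and 481 in KTL, and lay at the floor on both KNL arrays. The fall was at least 5.82-fold (adjusted p = 0.000746), the largest among members. Sox5 (mMC012911), a factor of deep-layer projection neurons, read 230 and 261 in WNL, 198 and 166 in WTL, and 182 and 239 in KTL, and was at the floor in KNL (at least 2.45-fold lower, adjusted p = 0.00134). Pax6, of neural progenitors and the developing eye, read 187 and 217 in WNL, 153 and 170 in WTL, and 154 and 138 in KTL, and was also at the floor in KNL (at least 2.01-fold lower, adjusted p = 0.00120). These 3 were the member probes at the floor on both KNL arrays and above it on all others, a pattern of 2.5% of all probes. Pou3f2 (mMC010545), the neuronal POU factor also known as Brn2, read 212 on both WNL arrays, 199 and 195 in WTL, 109 and 100 in KNL, and 268 and 206 in KTL (2.03-fold lower, adjusted p = 0.00189). Foxn3 (mMC022783), a forkhead repressor first found as a suppressor of yeast checkpoint mutants, read 212 and 223 in WNL, 200 and 185 in WTL, 100 and 103 in KNL, and 153 and 209 in KTL (2.14-fold lower, adjusted p = 0.00206).

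Among the brightest members, changes ran from small ones to calls in both directions. Foxh1, Dlx2 and Sox2 (mMC023778), described above, are among the 7 brightest member probes and changed by over 2-fold, Dlx2 without a call. Lhx2, a LIM factor that sets cortical and hippocampal fate, was the brightest member with 6003 and 4794 in WNL, 5761 and 6346 in WTL, 8191 and 10249 in KNL, and 5237 and 4547 in KTL (1.71-fold, adjusted p = 0.00917). Sox9, of astrocytes and stem cells, read 3512 and 4478 in WNL, 4039 and 4439 in WTL, 6098 and 6698 in KNL, and 4392 and 3874 in KTL (1.61-fold, adjusted p = 0.00910). Foxp1, of CA1 pyramidal and striatal neurons, read 2170 and 2020 in WNL, against 3544 and 3408 in KNL (1.66-fold, adjusted p = 0.00231). For Lhx2, Sox9 and Foxp1 the KNL arrays lay above the other 6, and none of these passed the 2-fold limit. Pou6f1, expressed in neurons, gave 2854 and 2868 in WNL, against 3079 and 3535 in KNL, and Sox10, the factor of oligodendrocytes, 1696 and 1674 in WNL and 1785 and 1953 in KNL. For these 2 genes the changes of 0.21 and 0.15 on the log2 scale had adjusted p = 0.263 and 0.300.

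Vessel, ependymal and meningeal members had no call in either direction over 6 probes. Sox18 and Sox17, both of endothelium, changed by 0.64 and 0.71 on the log2 scale, while Foxf2, of brain pericytes, changed by -0.86. Sox18 gave 278 and 295 in WNL, against 439 and 451 in KNL, and Foxf2 309 and 303 in WNL and 183 and 155 in KNL, without overlap. Of 8 probes for markers of endothelial and mural cells 1 rose and 3 fell, beside 6.93% of all probes that rose and 13.5% that fell.

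Described over whole lists, the 2 sets of members differed in level of change. The median change in KNL vs WNL was 0.89 for other members and 0.15 for brain-expressed members, and 0.16 for all probes. Of the other members, 45 of 46 had a positive change, and 43 of 46 lay above the median of all probes in the same decile of intensity. Probes at the floor in WNL, such as those of Hoxc9, Lhx3 and Tbx19, could not have a negative change. Whether such dim probes have values only because of their KNL level is not known, as the filter behind the blank probes is not given. The counts of positive changes and the median of other members may depend on that filter. Of the brain-expressed members 28 of 48 were positive. Dim probes as a whole shifted upward, with a median of 0.34 in the second decile of intensity and 0.05 in the highest. After subtraction of the median of its decile from each probe, the medians were 0.69 for other and 0.030 for brain-expressed members. Intensity in these divisions, deciles included, is the mean over all 8 arrays. A rise in KNL thus moves a probe toward the brighter group and a fall toward the dimmer one. Among the 10 other members brighter than the median of all probes the median change was 1.27 and 4 rose, against 0.84 and 5 of 36 among the dimmer ones. The division builds in part of this difference: Tbx10 (mMR030601) counts as brighter, though its mean in WNL was 438, below the median intensity of 469. Over the whole array 5.87% of the brighter probes and 7.98% of the dimmer probes rose. Among brain-expressed members 7 of 26 dimmer ones fell (26.9%, against 12.2% of all dimmer probes) with a median change of -0.10, and 1 of 22 brighter ones (4.55%, against 14.7%) with a median of 0.31. Here too the division builds in part of the difference. Foxj3 (mMC023270) and Sox12 count as dimmer, though their means in WNL were 582 and 537, above the median intensity of 469. When members were divided by intensity in place of the lists, the medians were 0.75 for the brighter and 0.64 for the dimmer members.

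**Figure D3:**
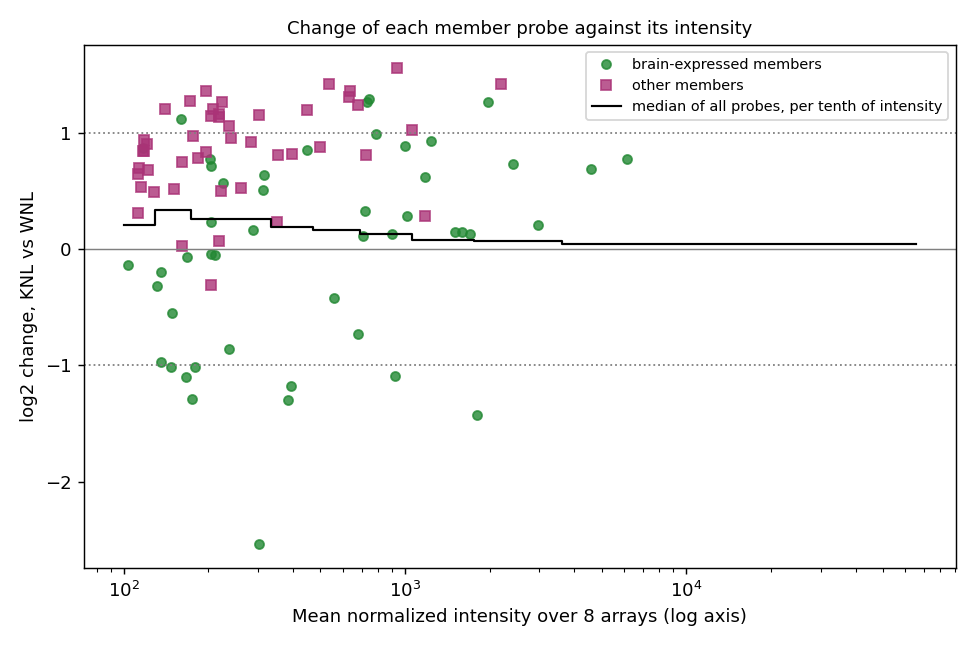
Log2 change in KNL vs WNL of each member probe (1 point per probe) against its mean normalized intensity over the 8 arrays (log axis), with the stepped line at the median of all probes per decile of intensity and dotted lines at the 2-fold limits. Other members lie above the stepped line for 43 of 46 probes over the whole range of intensity, while brain-expressed members lie on both sides and make up all points under the lower limit.

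By family, the medians in KNL vs WNL were 0.95 for Hox, 0.89 for Nkx, 0.84 for Tbx, 0.80 for Pax, 0.77 for Lhx and 0.73 for Fox, and lower for Dlx (0.32), Pou (0.21) and Sox (0.13). No Sox probe rose and 3 of 17 fell, and of the 25 Fox probes 2 rose and 3 fell, beside 6.93% of all probes that rose and 13.5% that fell. By role, none of 18 neuronal probes rose and 2 fell, none of 9 glial and progenitor probes rose and 2 fell, and none of 10 probes of broadly expressed members rose and 4 fell. In this last group the median change was -0.71.

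**Figure D4:**
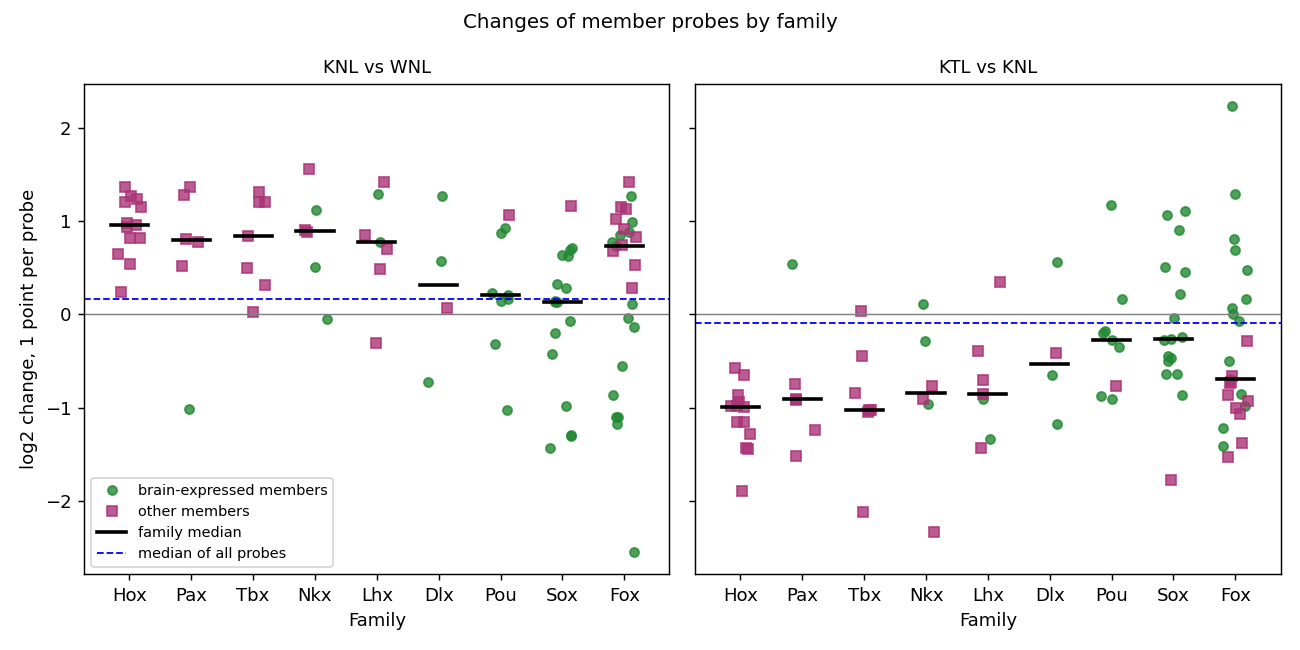
Log2 changes of member probes by family, with KNL vs WNL on the left and KTL vs KNL on the right, 1 point per probe, a bar at the family median and a dashed line at the median of all probes. On the left the Hox, Pax, Tbx, Nkx and Lhx medians lie near 0.8 to 0.95 and the Sox median at 0.13. Both panels share the KNL arrays.

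To see what training changed in the knockout, KTL was compared with KNL. Of the 94 members 5 rose (5.32%, against 12.6% of all probes) and 12 fell (12.8%, against 7.5%). Both comparisons use the same KNL arrays, so that opposite signs in them are not separate evidence. The 5 that rose were the probes of Foxj3, Foxk2, Pou3f2, Sox12 and Sox5 described above, all brain-expressed, with log2 changes from 1.06 for Sox5 to 2.23 for Foxj3. Those that fell were probes of Foxb1, Foxh1, Hoxb2, Hoxc8, Hoxd11, Nkx2-6, Pax2, Pax3 and Tbx10 among other members, and of Foxk1, Foxo6 and Lhx6 among brain-expressed members, of which Hoxd11 and Foxo6 are named because they were called here. Foxo6, a forkhead factor of hippocampal neurons that supports memory in mice, read 1495 and 1715 in KNL and 784 and 609 in KTL (log2 -1.21, SE 0.19, adjusted p = 0.00317), with 832 and 902 in WNL and 895 and 1217 in WTL. Nkx2-6 had the largest fall (log2 -2.33, SE 0.51, adjusted p = 0.00943), and all 13 Hox probes had a negative change with a median of -0.99. The medians were -0.93 for other members, -0.25 for brain-expressed members and -0.09 for all probes. Without replicate 2 of KNL 1 member fell and 2 rose, without replicate 2 of KTL 1 fell and 2 rose, without replicate 1 of KTL 2 fell and without replicate 1 of KNL 6 fell.

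KTL and WTL, the trained groups, were compared to see what the knockout changed after training. No member was called by limma or by SAM (0.0241% of all probes by limma), and 11 of 94 had an unadjusted p under 0.05, against 17.5% of all probes. The median change was -0.22 for other members, -0.03 for brain-expressed members and 0.00 for all probes, and 40 of 46 other members were negative or at 0. In WTL vs WNL, the effect of training in wild type, limma and SAM called no member either, as limma called 0% of all probes, with 12 of 94 at an unadjusted p under 0.05 against 15.1% of all. There 38 of 46 other members had a positive change, 3 were at the floor on all arrays of both groups and 5 had a negative change, with a median of 0.16. This came from 1 array: relative to the mean of WNL, the median of other members was 0.00 on replicate 1 of WTL and 0.33 on replicate 2, with 0.81 and 1.07 on the KNL arrays and 0.00 on both KTL arrays. The interaction, which tests whether the effect of the knockout differed between trained and naive mice, called 12 members lower (12.8%, against 8.46% of all probes) and 6 higher (6.38%, against 13.3%).

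Genes with several probes did not always give 1 answer. Of the 16 member genes with several probes, 6 (37.5%) had probes that differed by more than 1 on the log2 scale in KNL vs WNL, against 38% of 1751 such genes in all, and 6 had probes of opposite sign. In 9 genes some probes were called and others were not (56.2%, against 31.7%), and in no member gene were probes called both ways. Foxk1, a broadly expressed forkhead factor, had changes of -1.09 and 1.26 on its 2 probes, neither of them called. Foxn3 had -1.10 on the called probe and 0.99 on mMC008295, which gave 598 and 638 in WNL, against 1241 and 1218 in KNL. Sox2 had -1.43 on the brighter probe and 0.13 on mMC010494, with 964 and 907 in WNL and 1026 and 1021 in KNL. The 3 other probes of Sox5 changed by 0.13 to 0.62, the 2 other probes of Pou3f2 by 0.23 and 0.87, and the other probe of Foxj3 by -0.04. Among genes that rose, the second probes of Hoxa9, Tbx10, Hoxc4 and Foxb1 changed by 0.24, 0.50, 0.94 and 0.92. Which transcript or part of a gene each probe reads is not known here. The falls of Foxj3, Foxn3, Sox2, Sox5 and Pou3f2 therefore hold for the probe named and not for the gene as a whole. The same limit applies to the rises of Hoxa9 and Tbx10.

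**Figure D5:**
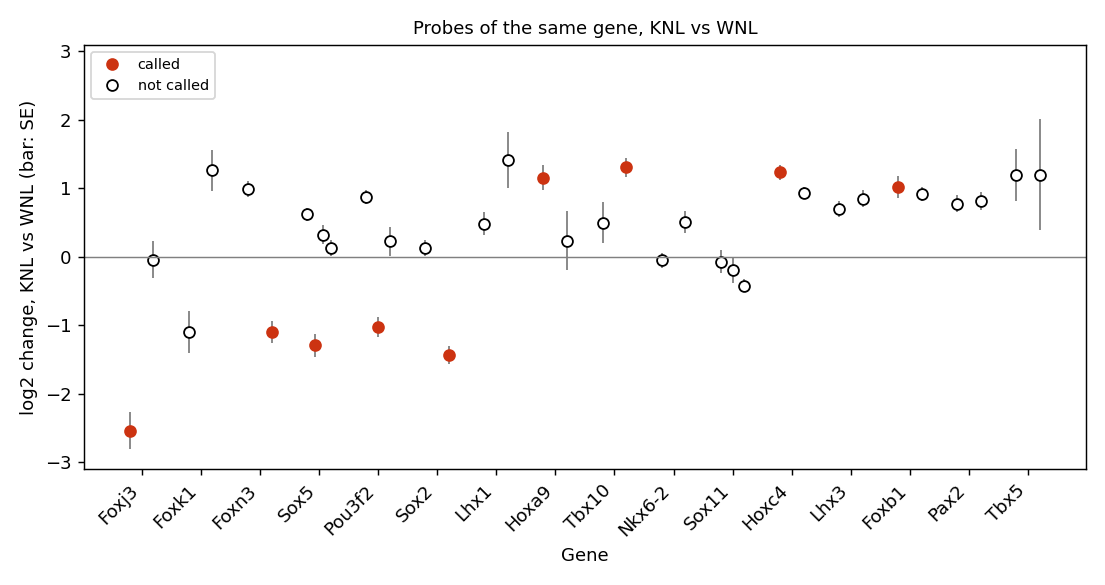
Log2 change in KNL vs WNL for each probe of the 16 member genes with several probes, with bars of 1 SE from limma, filled where called. Probes of Foxj3, Foxk1, Foxn3, Sox5, Pou3f2 and Sox2 spread over more than 1 unit, while those of Hoxc4, Lhx3, Foxb1, Pax2 and Tbx5 lie within 0.3 of each other.

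Partner proteins and chromatin regulators of these factors were also counted. Hox proteins bind DNA with Pbx, Meis and Pknox, LIM factors act through Ldb and are held back by Lmo, and Tle proteins are corepressors of several of the families. Of 19 probes for 13 such genes 1 rose and 3 fell in KNL vs WNL, and 3 rose and 2 fell in KTL vs KNL. Over all probes the shares were 6.93% and 13.5% in the first comparison and 12.6% and 7.5% in the second. Tle4 had the largest fall, from a mean of 2840 in WNL to 462 in KNL, with 2113 in KTL (log2 -2.62, SE 0.29, adjusted p = 0.000828). Tle1 fell on 1 of its 3 probes (mMC021259, log2 -2.29, SE 0.25, adjusted p = 0.000797) and changed by 0.44 and 0.27 on the others. The probe that rose was of Tle2 (mMR028670, log2 1.65, SE 0.22, adjusted p = 0.00167), at the floor on both WNL arrays. The other Tle2 probe changed by 0.86 and the Tle3 probes by 0.70 and 0.53, without a call. Tle genes thus went both ways. Polycomb proteins silence Hox clusters and trithorax proteins keep them active. Of 18 probes for 16 Polycomb and trithorax genes none rose and 7 fell in KNL vs WNL, beside 13.5% of all probes, and 7 rose in KTL vs KNL, beside 12.6%. Bmi1 and Rnf2, subunits of Polycomb complex PRC1, were lower in KNL, Bmi1 at least 3.86-fold with both KNL arrays at the floor (adjusted p = 0.000727) and Rnf2 by -1.78 on the log2 scale (adjusted p = 0.000164). Ash2l, a subunit of the trithorax-type methyltransferases, fell on 1 of 2 probes, from a mean of 1467 in WNL to 367 in KNL (adjusted p = 0.000217). How these changes relate to those of the members was not tested.

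Markers of cell types moved as well, and their counts are to be read beside the 13.5% of all probes that fell in KNL vs WNL. Of 9 probes for hippocampal excitatory neurons none rose and 4 fell in KNL vs WNL, those of Neurod6, Spink8, Fibcd1 and Prox1, with a summed level of 25345 and 25674 in WNL and 19852 and 20043 in KNL. Choroid plexus markers, with Ttr at their head, had a summed level between 55445 and 56631 in WNL, 41938 and 44476 in WTL, 16044 and 19619 in KNL, and 20678 and 21617 in KTL. This sum is mostly Ttr. Of the 11 choroid plexus probes none rose and 2 fell in KNL vs WNL. In KTL vs KNL 6 of them fell and 1 rose, beside 7.5% and 12.6% of all probes, with a median change of -1.06. Astrocyte markers summed to 42431 and 43204 in WNL and 28825 and 32795 in KNL, and 2 of 8 probes fell. This astrocyte sum is mostly Gja1 and Slc1a3, which changed by -0.53 and -0.42 on the log2 scale without a call. The probes that fell were those of Slc7a10 and Gfap (mMC012871), and the other Gfap probe changed by 0.12. Of 4 ependymal probes none was called, and 3 of 7 meningeal probes fell. The part of cell composition in the changes of the members was not tested.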

How the data were processed

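RNA of 4 groups of left hippocampi (WNL, WTL, KNL and KTL) was measured on 2 Mouse Whole Genome OneArray arrays each. The authors pooled RNA of 3 mice, amplified it, labeled it with Cy5, hybridized it, and applied a floor and quantile normalization. The deposited values are linear intensities, with array medians of 481 to 482. Since values down to 7.23 remained, the floor of 100, quantile normalization and log2 were applied here. Of 29922 probes 13334 held no value on any array and were not used, and the filter behind the blanks is not given in the sources used here. On each array 6.64% to 6.86% of probes were at the floor, which limits dim probes.

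Groups were compared with limma 3.58.1 (R 4.3.3), fitting a mean for each group on all 8 arrays (4 residual and 2.45 prior degrees of freedom), with Benjamini-Hochberg adjustment over 16588 probes. The script was tested on simulated data. Limma was used in place of the SAM test of the methods because 4 arrays give only 6 splits, and SAM is among the alternatives. A fold change is the ratio of geometric means, and it is a lower bound where both arrays of the lower group were at the floor. Gene symbols are those of the platform annotation, which can be old, and promoter sequences are from RefSeq (GRCm38.p6).

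The members, lists and tests were chosen with earlier results of these data known. The rule for naming genes took Cacna1h, up to 10 called members each with the greatest rise and fall in KNL vs WNL, the 3 brightest of each role list, the brightest of each family, genes whose probes differ in call, and the 5 cofactor or Polycomb and trithorax genes with the greatest called change. Among members, Hoxc9, Hoxd3, Hoxd11, Lhx3, Lhx9, Nkx6-3, Foxo6, Tbx5 and Tbx19 fall outside it and were singled out after their values were seen. The labels do not say whether the replicate numbers pair samples, and the main fit used no pairing. The differences between replicates 1 and 2 correlated at -0.25 to 0.43 between groups, which leaves this open. Alternatives changed the floor, normalization, filter, test, thresholds and arrays.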

Additional observations from a re-analysis of the deposited data

Results flagged for a closer look

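The effect of the knockout differed between naive and trained mice for 18 of the 94 member probes (19.1%, against 21.8% of all probes), by the interaction of genotype and training in limma at an adjusted p under 0.01 and over 2-fold. The interaction is the change in KTL vs WTL minus that in KNL vs WNL, so that a negative value means a smaller rise or a larger fall of the knockout after training. Its log2 value was negative for 12 probes, of which 9 are other members: Foxh1 (-2.13), Pax3 (-1.90), Hoxb2 (-1.56), Tbx10 (-1.54), Hoxc8 (-1.42), Hoxc4 (-1.39), Pax2 (mMC023520, -1.36), Foxb1 (-1.25) and Nkx6-3 (-1.10). The brain-expressed members with a negative value were Foxo6 (-1.48), Foxn3 (mMC008295, -1.10) and Sox18 (-1.02). It was positive for 6 probes, all brain-expressed: Sox2 (1.09), Foxk2 (1.21), Pou3f2 (1.27), Sox5 (1.49), Sox12 (1.56) and Foxj3 (3.14). The interaction shares the KNL and WNL arrays with the comparison of naive mice. The number of members called was 10 without replicate 1 of WNL, 3 without replicate 2 of WNL, 9 without replicate 2 of WTL, 10 without replicate 1 of KNL, 1 without replicate 2 of KNL, and 0 without either replicate of KTL.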

How the results depend on the processing

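In the order of members higher and lower in KNL vs WNL and then higher and lower in KTL vs KNL, the main counts were 11, 8, 5 and 12. With no floor 18 members were higher in KNL vs WNL and 19 lower in KTL vs KNL, and with a floor of 50 both counts were 19. With a floor of 200 the counts were 5, 3, 2 and 5, and the interaction had 9 of the main 18. A filter on dim probes gave 4 lower in KNL vs WNL and 3 higher in KTL vs KNL. An adjusted p under 0.05 gave 19 higher in KNL vs WNL, 21 lower in KTL vs KNL and 38 in the interaction. A fit of only the 4 arrays compared gave 5 higher in KNL vs WNL and 3 higher in KTL vs KNL. SAM gave 22 higher in KNL vs WNL and 23 lower in KTL vs KNL. Over all probes it called 1695 higher and 2409 lower in KNL vs WNL, the same counts as over 2-fold without regard to p. In that comparison SAM thus added nothing to the fold limit. The treat test against a 2-fold change, which asks for evidence beyond that limit, gave 0 in each of these counts and in the interaction. With the brightest probe per gene, an alternative chosen after seeing the data, 5 were lower in KNL vs WNL and 3 higher in KTL vs KNL.

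The median change of other members in KNL vs WNL was 1.07 with no floor and with a floor of 50, 0.61 with a floor of 200, 1.06 after the filter and 0.69 after subtraction of the median of the decile of intensity, which was also chosen after seeing the data. In KTL vs KNL it was -0.67 with a floor of 200, -0.77 with cyclic loess and -0.74 after that subtraction. The median of brain-expressed members in KNL vs WNL was 0.11 with cyclic loess, 0.26 after the filter, 0.18 with the brightest probe per gene and 0.030 after subtraction, and in KTL vs KNL -0.22 with a floor of 200, -0.21 with cyclic loess, -0.32 after the filter, -0.28 with the brightest probe per gene and -0.14 after subtraction. Divided by intensity, brighter members had 0.75 and -0.73 and dimmer members 0.64 and -0.71. No direction turned, and the causes were not tested.

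When 1 array was left out at a time, members higher in KNL vs WNL numbered 2 to 12 and members lower 3 to 8, fewest without replicate 2 of KNL. Members higher in KTL vs KNL numbered 2 to 5, members lower 1 to 14, and members called in the interaction 0 to 21. The median of other members ran from 0.81 to 1.07 in KNL vs WNL and from -1.11 to -0.78 in KTL vs KNL, and that of brain-expressed members from 0.12 to 0.17 and from -0.26 to -0.21. In these fits Foxk2, Hoxc4, Sox12, Sox2 and Tbx10 kept their calls. The replicate number as a block gave 17 members called in KNL vs WNL, all among the main 19. The calls lost were the rises of Lhx6 and Nkx2-1, so that no brain-expressed member rose. The counts of members called in each comparison moved by less than 1.5 times. Whether the replicate numbers pair samples is not known.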
